A study of Mus musculus with 6 samples.

Results

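The levels of 8 complement genes were followed in sorted tumor stroma. They were the classical proteases C1ra, C1s1 and C2, the substrates C4b and C3, factor B (Cfb), C1 inhibitor (Serping1) and Cd55, taken by name from a table of 53801 genes. The cells were PDPN+ PDGFRα+ cells, negative for CD45 and CD31, sorted by FACS from MO5 melanomas, which are B16 tumors carrying ovalbumin, grown under the skin of C57Bl/6 mice aged 8 to 12 weeks. The 3 DTR libraries came from ADAM12-DTR mice (genotype DTR+), in which the Adam12 promoter drives the diphtheria toxin receptor, and the 3 Ctrl libraries from littermates without it (DTR-). Mice of both genotypes received diphtheria toxin, so the groups differ in the receptor and in the intended loss of cells that carry it. The comparison asks how the sorted PDPN+ PDGFRα+ stroma differed after the treatment that the study used to deplete ADAM12+ cells. The labels do not say whether the 3 samples of a group were separate mice or pools, so the p-values measure the spread between these samples only. In sorted bulk RNA, fewer cells of a type and less RNA per cell cannot be told apart.

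Complement is a cascade of plasma proteases and their substrates. The classical pathway starts when C1q binds antibody or other ligands and the proteases C1r and C1s, bound to it, cut C4 and then C2. The alternative pathway runs through C3 and factor B, and both arms meet at the cleavage of C3. Host cells and fluids hold the cascade back with regulators such as C1 inhibitor, which blocks C1r and C1s, and CD55, a membrane protein that speeds the decay of the enzymes that cut C3. The liver makes most of the plasma supply, and fibroblasts are a known local source of several of these proteins.

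The libraries held between 22339635 and 34271929 counts. Adam12 itself is the gene whose promoter marks the cells targeted for ablation. It read 216, 181 and 175 TMM-scaled CPM (read counts scaled to library size) in Ctrl and 165, 151 and 112 in DTR. This was lower in every DTR library but not past the test (log2 fold change -0.42 ± 0.154 SE, edgeR quasi-likelihood adjusted p = 0.602, and -0.27 without DTR replicate 3). Fibroblast genes were abundant in all 6 libraries, with the 10 markers summing to between 5355 and 14543 CPM, and so were melanoma markers, whose 12 genes summed to between 18204 and 22266 CPM. The sorted fraction thus carried melanoma transcripts at high level in both groups. DTR replicate 3 stands apart for the members, so their fold changes are also given without it.

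Sequences just before the start site are shown for C3, C1s1 and Cd55, because these genes varied together across the libraries, as described further on. Each line gives the 250 bases upstream of the RefSeq start, which is also the GENCODE start of the gene, 5′ to 3′ along the transcribed strand, on GRCm38.p6. The intervals are chr17:57228137-57228386 for C3, chr6:124542360-124542609 for C1s1 and chr1:130462745-130462994 for Cd55, all on the minus strand. C1ra is the fourth of the 8 genes in the RefSeq promoter table, but its RefSeq start lies 216 bases inside the GENCODE gene, and its window is not shown. Capitals mark matches on either strand to TTNNGNAAT, a 9-base pattern of the C/EBP type.
C3: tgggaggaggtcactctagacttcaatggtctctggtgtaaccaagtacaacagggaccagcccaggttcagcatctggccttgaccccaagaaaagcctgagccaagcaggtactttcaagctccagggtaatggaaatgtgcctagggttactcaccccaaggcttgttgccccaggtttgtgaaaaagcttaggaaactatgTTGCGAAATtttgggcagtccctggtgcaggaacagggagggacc
C1s1: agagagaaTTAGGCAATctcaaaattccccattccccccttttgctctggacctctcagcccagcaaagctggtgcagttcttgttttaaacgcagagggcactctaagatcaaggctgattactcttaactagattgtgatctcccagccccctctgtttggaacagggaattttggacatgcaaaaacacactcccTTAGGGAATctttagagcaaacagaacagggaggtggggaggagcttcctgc
Cd55: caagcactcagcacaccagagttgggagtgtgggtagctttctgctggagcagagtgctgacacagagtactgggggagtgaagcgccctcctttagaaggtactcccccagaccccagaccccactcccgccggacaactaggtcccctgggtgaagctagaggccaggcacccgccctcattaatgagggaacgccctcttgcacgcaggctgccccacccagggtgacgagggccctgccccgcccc
Counted from the start site, with the last upstream base as -1, matches begin at -45 in C3 and at -242 and -52 in C1s1, with none in this window of Cd55. In the C1ra window that is not shown, matches begin at -73 and -30 from the RefSeq start. Of the 5 windows of these 4 genes, 4 held a match, from 3 genes. The pattern was chosen after the sequences had been seen, it does not overlap the other motifs searched, and it occurs in 11.5% of the 32851 promoter windows of 300 bases in the same table. Of the interferon-type elements, GAS (TTCNNNGAA, in 8.30% of the windows) matched once, at position 33 counted from the RefSeq start of C1ra as 1, and ISRE (in 3.44%) matched in none of the 5 windows of these 4 genes. These are matches of letters only.

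C3 was the most abundant of the 8 genes. It encodes the central protein that both pathways cleave, and it lies at chr17:57203970-57228136 on GRCm38. Its counts were 19876, 9002 and 16192 in Ctrl and 29331, 11159 and 47940 in DTR. Scaled, the Ctrl libraries read 812, 377 and 569 CPM and the DTR libraries 853, 359 and 2115 CPM. DTR replicates 1 and 2 lay just above the top and just below the bottom of the Ctrl range, and DTR replicate 3 lay 2.48-fold above the next library. By mean CPM, C3 ranked 77 of 53801 genes, and it took 0.0362% to 0.215% of a library's counts.

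C4b encodes the C4 protein that C1s cuts. It read 277, 301 and 266 CPM in Ctrl, a narrow range, and 287, 191 and 710 CPM in DTR. Its DTR libraries thus included both the lowest and the highest of the 6 values. C4b lies at chr17:34728380-34743882 within the major histocompatibility region, with its paralog C4a, C2 and Cfb nearby.

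The paired proteases of the C1 complex are neighbours on chromosome 6, C1ra on the plus strand at chr6:124512405-124523443 and C1s1 on the minus strand at chr6:124530345-124542359. C1ra read 46.8, 38.2 and 45.0 CPM in Ctrl and 46.9, 45.6 and 118 CPM in DTR. C1s1 read 92.7, 53.3 and 59.1 CPM in Ctrl and 95.2, 60.5 and 269 CPM in DTR. In both genes 2 of the 3 DTR libraries fell within or just beyond the Ctrl range, and DTR replicate 3 stood 2.52-fold (C1ra) and 2.82-fold (C1s1) above the next library. Per kb of exon, C1s1 stood 1.25-fold to 2.17-fold above C1ra within a library, and this ratio did not separate the groups (two-sided exact permutation test, p = 0.4, against a smallest possible 0.1).

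Serping1, the inhibitor of these same proteases, lies at chr2:84765387-84775444. It read 177, 79.7 and 117 CPM in Ctrl and 169, 100.03 and 418 CPM in DTR. Its values followed those of its target C1s1 closely, and the ratio of Serping1 to C1s1 per kb of exon stayed between 2.01 and 2.67 in the 6 libraries (two-sided exact permutation test, p = 0.5).

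Cd55, at chr1:130439027-130462744, had the lowest mean level per kb of exon of the 6 genes with substantial counts. It read 31.3, 15.4 and 17.5 CPM in Ctrl and 48.3, 17.7 and 177 CPM in DTR. DTR replicate 2 lay within the Ctrl range, DTR replicate 1 lay above it, and DTR replicate 3 was 8.27-fold above the Ctrl mean. Set against C3 within each library, per kb of exon, Cd55 stood at 0.0408, 0.0432 and 0.0325 in Ctrl and at 0.0601, 0.0522 and 0.0886 in DTR. This ratio was higher in every DTR library, the one member ratio of the 4 computed that did not overlap, with p = 0.1 in a two-sided exact permutation test, the smallest that 3 against 3 allows and not significant (Benjamini-Hochberg adjusted p = 0.4 over the 4 ratios).

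**Figure D1:**
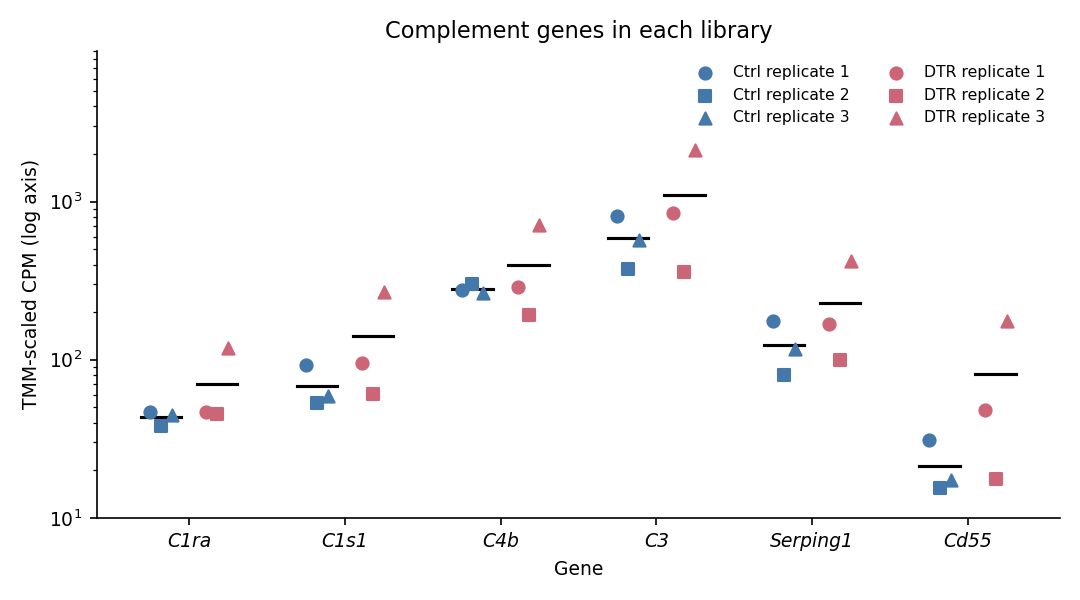
TMM-scaled CPM (log axis) of the 6 complement genes with substantial counts, for each of the 3 Ctrl (blue) and 3 DTR (red) libraries, with symbols for the replicate and black bars for the group means. In each gene DTR replicate 3, the red triangle, is the highest value, from 118 CPM in C1ra to 2115 CPM in C3, while the other DTR libraries lie among or near the Ctrl libraries.

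Per kb of exon, the mean level over the 6 libraries fell from C3 (165 CPM per kb) through Serping1 (76.0), C4b (59.4), C1s1 (33.5) and C1ra (19.1) to Cd55 (10.5). The order of neighbours held in 6 of 6 libraries for each pair except Serping1 and C4b, where it held in 5 of 6. With the whole gene as the length, introns included, C4b came before Serping1 in 6 of 6 libraries, so the order of this pair depends on the length used. Neither length was corrected for sequence shared with paralogs, which is described further on. C3 and C4b then held their order in 5 of 6 libraries. The ratio of C3 to C4b per kb of exon ranged from 1.39 to 3.30 and did not separate the groups (two-sided exact permutation test, p = 0.5).

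The remaining members, C2 and Cfb, could not be measured with this table. Cfb encodes the protease precursor of the alternative pathway and had 0 counts in all 6 libraries. C2, the substrate cut after C4, had 15, 1 and 1 counts in Ctrl and 8, 2 and 3 in DTR. The genes are neighbours on the minus strand, C2 at chr17:34862604-34898265 and Cfb at chr17:34856374-34862518. GENCODE also places there the readthrough gene Gm20547, at chr17:34856412-34882042, which runs through both and had 0 counts too. Of the 6145 bases of Cfb, 6107 (99.4%) lie within Gm20547, which leaves 38 bases outside. Of the 35662 bases of C2, 16223 lie outside, and they hold 58 of the 2641 bases of its principal transcript.

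Across the whole table, 465 of 465 protein-coding genes lying wholly within other genes of their strand had no count in any library. That held for 238 of 238 such genes that share no exonic base with another gene. In the class of Cfb, with at least 99% of the gene within others, 584 of 616 (94.8%) had no count. Among protein-coding genes with under 5% of their length shared, 20.9% had no count. This is the pattern that results when a read within a stretch shared by 2 genes of a strand, introns included, is counted for neither. On that pattern the counts of C2 come from its 16223 bases outside the readthrough gene, and the 0 of Cfb gives no upper limit on its transcript. Neither gene is compared between groups. Of the wider complement genes, Itgam, with 99.9% of its length inside another gene, was at 0 counts in the same way. The other 6 members share at most 0.236% of their length (C3, with a microRNA gene).

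**Figure D2:**
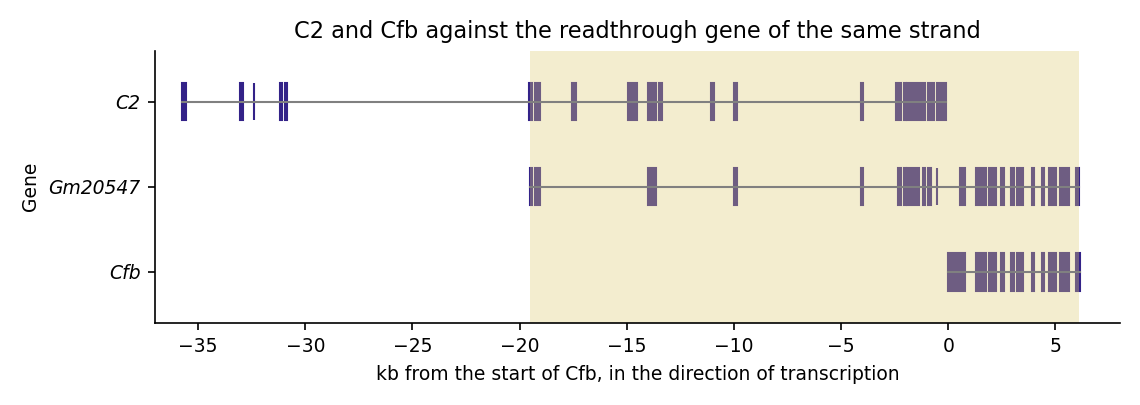
Exons (blocks) of C2, Gm20547 and Cfb on the minus strand of chromosome 17, in kb from the start of Cfb along the direction of transcription. The shaded stretch is the extent of Gm20547. It covers 99.4% of Cfb and 54.5% of C2, including nearly all of the crowded C2 exons next to Cfb.

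Few counts were assigned to close copies of the members. How many reads the members lost to shared sequence was not measured. C1rb, C1s2 and C4a, the paralogs of C1ra, C1s1 and C4b, had 0 to 9, 1 to 43 and 4 to 47 counts per library, and Cd55b had 3, 3 and 0 in Ctrl and 27, 6 and 66 in DTR (DESeq2 adjusted p = 0.181, below the edgeR filter). The paralog held 0.286%, 0.711%, 0.213% and 1.32% of its pair's counts. Since 48.0% of the 50-base stretches of C1ra transcripts also occur in C1rb, and 34.6% of those of C4b in C4a, how reads that fit both were assigned bears on these small counts, and C4a (log2 fold change 1.87 ± 0.733 SE, edgeR adjusted p = 0.604, and 1.12 without DTR replicate 3) is uncertain for that reason.

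In the comparison of DTR with Ctrl, none of the 6 tested members passed an adjusted p of 0.05 in edgeR's quasi-likelihood test, against 0% of the 15133 genes tested. At an unadjusted p under 0.05, 1 of 6 (Cd55) was higher in DTR, against 3.81% of all genes. The groups overlapped in 6 of 6 members, whereas they did not overlap in 14.5% of all genes. DESeq2 called 0 of the 6, and 0.152% of the 20360 genes to which it gave an adjusted p.

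The log2 fold changes were nonetheless above 0 in each of the 6 genes. Cd55 went from 21.4 ± 8.65 to 80.9 ± 84.4 CPM (SD, 3 libraries a group), a log2 fold change of 1.92 ± 0.733 SE (edgeR adjusted p = 0.602). C1s1 went from 68.4 ± 21.3 to 142 ± 112 CPM, at 1.05 ± 0.504 (edgeR adjusted p = 0.642). C3 went from 586 ± 218 to 1109 ± 905 CPM, at 0.92 ± 0.567 (edgeR adjusted p = 0.682). The SD of the DTR group was above its mean for Cd55 and not far below it for C1s1 and C3.

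Serping1 averaged 125 ± 49.0 CPM in Ctrl and 229 ± 167 CPM in DTR, with a log2 fold change of 0.88 ± 0.4997 SE (edgeR adjusted p = 0.664). C1ra averaged 43.4 ± 4.56 and 70.3 ± 41.6 CPM, with 0.69 ± 0.351 (edgeR adjusted p = 0.648). C4b had the smallest difference, 281 ± 18.2 and 396 ± 276 CPM, with 0.49 ± 0.414 (edgeR adjusted p = 0.761). Exact permutation tests of the single genes gave p between 0.2 (C1ra, C1s1 and Cd55) and 0.8 (C4b). The median log2 fold change of the 6 genes was 0.90, beside -0.0029 for all genes tested.

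Most of each difference rested on 1 library. Without DTR replicate 3 the median of the 6 fell to 0.10. C3 then stood at 0.05 ± 0.396 SE, C1ra at 0.09 ± 0.123, Serping1 at 0.11 ± 0.330 and C1s1 at 0.19 ± 0.268, and C4b turned to -0.24 ± 0.169. Cd55 kept the largest value, 0.63 ± 0.435 (edgeR adjusted p = 0.878). DTR replicate 3 was the highest library for 6 of 6 members and, after 0.5 CPM was added to each value, more than 2-fold above the next library for 6 of 6. Among all genes tested it was the highest for 20.9% and more than 2-fold above the next for 1.51% (228 genes).

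**Figure D3:**
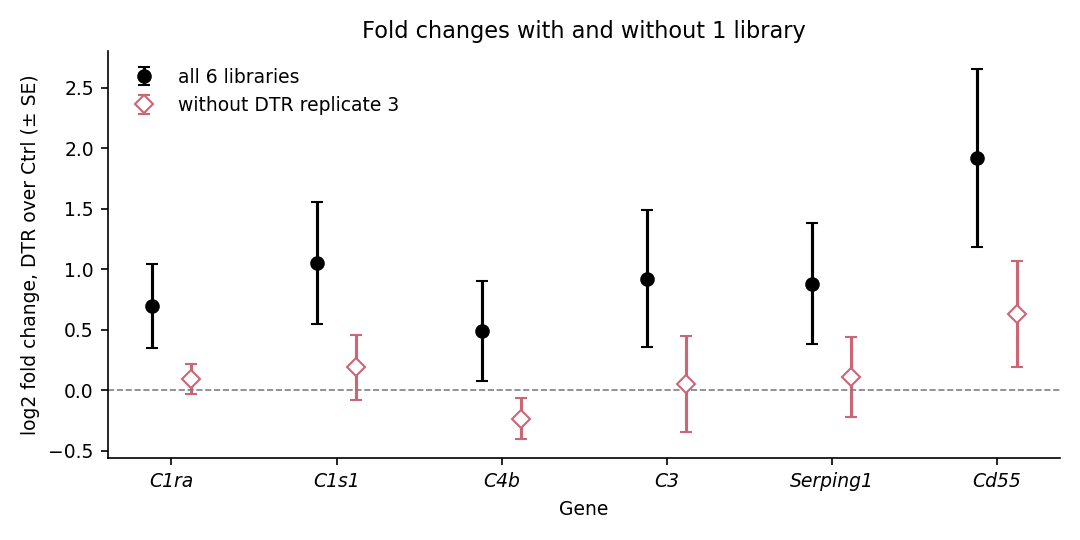
Log2 fold change of DTR over Ctrl with its SE for the 6 tested complement genes, from all 6 libraries (black) and without DTR replicate 3 (red, open). With all libraries the values run from 0.49 for C4b to 1.92 for Cd55, and without that library 5 of the 6 lie between -0.24 and 0.19, with Cd55 at 0.63.

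Over the 6 libraries the members varied together. Pearson's r of log2 CPM between pairs of the 6 genes ran from 0.835 (C4b and Serping1) to 0.990 (C1s1 and Cd55) over 15 pairs. These points share their libraries, and 1 of the 6 libraries is far above the rest, so r is a description only. The genes outside the complement list whose levels were most like the members' mean profile were Rnase4 (r = 0.997), Snx18 (0.996), Ace (0.996), Scn7a (0.996) and Plpp3 (0.994), among 8778 genes of mean CPM 10 or more. Rnase4 encodes a secreted ribonuclease and read 35.3, 18.6 and 23.4 CPM in Ctrl and 36.2, 18.3 and 90.2 CPM in DTR. Ace, the angiotensin-converting enzyme, read 48.7, 22.7 and 29.1 CPM in Ctrl and 48.1, 24.8 and 176 CPM in DTR. The profile included the low counts of C2, and with the 6 tested members alone Ace stayed among the first 5 and the other 4 were Nhsl1, Cebpd, Scara3 and Mcl1.

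Other gene lists show what else differed in DTR replicate 3. Summed, the members read 1437, 865 and 1074 CPM in Ctrl and 1499, 774 and 3807 CPM in DTR. The genes that the study names with C3 as markers of one stromal subset, Cd34, Dpp4, Il6ra and Il6st, summed to 297, 198 and 211 CPM in Ctrl and 324, 203 and 562 CPM in DTR. Of these, Dpp4 read 44.8, 21.5 and 33.3 CPM in Ctrl and 62.4, 29.7 and 191 in DTR (log2 fold change 1.51 ± 0.611 SE, adjusted p = 0.604, and 0.47 without DTR replicate 3). Cd34 read 65.3, 32.0 and 38.8 CPM in Ctrl and 83.3, 36.7 and 171 in DTR (1.09 ± 0.507 SE, and 0.40 without that library). Both were highest in DTR replicate 3, as the complement genes were. Il6ra read 17.6 CPM in that library and at most 9.45 in the others. Il6st was nearly level, at 183 CPM in DTR replicate 3 and 179 in Ctrl replicate 1. Its log2 fold change was 0.10, and 0.0052 without DTR replicate 3. By flow cytometry, the study reports that the subset marked by these genes became less frequent in tumors depleted of ADAM12+ cells. Here the RNA of C3, Cd34 and Dpp4 averaged higher in DTR, mostly through DTR replicate 3, and none was called. A cell frequency and the RNA of a whole sorted fraction are different measures, and how they relate was not tested.

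Interferon-stimulated genes, of which 20 of 21 tested had log2 fold changes above 0 with none called, summed to between 1564 and 2922 CPM in Ctrl and to 2538, 2486 and 4778 CPM in DTR. Their median log2 fold change was 0.30, and -0.03 without DTR replicate 3, when 8 of 21 were above 0. Over all genes tested in the 6 libraries, 7507 of 15133 were above 0. In Ctrl they did not follow the members: Ctrl replicate 1 had the highest members' sum of the group and the lowest interferon sum, 1564 CPM. The 10 fibroblast markers summed to 13872, 5382 and 5355 CPM in Ctrl and 11136, 5739 and 14543 CPM in DTR, with Col1a1 and Col3a1 making up most of the sum. Of the less abundant markers, the matrix gene Dcn read 225, 82.2 and 177 CPM in Ctrl and 245, 136 and 601 in DTR (log2 fold change 1.02, and 0.24 without DTR replicate 3). Dpt read 93.5, 42.3 and 40.3 CPM in Ctrl and 115, 44.1 and 273 in DTR (1.29, and 0.44 without that library). Both were more than 2-fold above the next library in DTR replicate 3, as the members were. Other markers of the list were not. Pdgfra read 132 CPM in DTR replicate 3 and 125 in Ctrl replicate 1, and Pdpn read 99.2 and 73.3. Col1a1 was lower in DTR replicate 3 (3023 CPM) than in Ctrl replicate 1 (4289 CPM). The median log2 fold change of the 10 markers was 0.38, and 0.08 without DTR replicate 3.

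Divided by Pdgfra, the sorting marker of these cells, within each library, C3 stood at 6.51, 8.83 and 9.04 in Ctrl and 8.82, 6.65 and 16.0 in DTR. Cd55 stood at 0.251, 0.360 and 0.277 in Ctrl and 0.4997, 0.328 and 1.34 in DTR. On this scale too DTR replicate 3 was the highest library for C3, Cd55, C1s1 and Serping1, and by a small margin for C1ra (0.898 against 0.895 in Ctrl replicate 2). C4b was at 5.39 in DTR replicate 3 and at 7.06 in Ctrl replicate 2. Divided by Col1a1 instead, DTR replicate 3 was the highest library for 6 of 6 members, C4b included (0.235 against at most 0.202 in Ctrl).

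Markers of other cell types were measured beside these. The 14 macrophage markers summed to 234 to 324 CPM in Ctrl and 250 to 269 CPM in DTR, with a median log2 fold change of -0.10, and -0.06 without DTR replicate 3. The 12 melanoma markers summed to 18204 CPM in DTR replicate 3, the lowest of the 6 libraries, with a median of -0.08, and -0.03 without it. Mural markers summed to 73.2 to 166 CPM in Ctrl and 79.0 to 99.5 in DTR. Of these, 7 were tested, 0 were above 0 and the median was -0.70, and -0.49 without DTR replicate 3. Lymphocyte markers summed to 7.47 to 52.6 CPM in Ctrl and 14.3 to 22.4 in DTR, with 8 of 9 tested below 0 and a median of -0.57, and -0.83 without DTR replicate 3. None of these markers was called. Neutrophil markers summed to 1.69 to 7.72 CPM in Ctrl and 1.68 to 2.87 in DTR.

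The 8 endothelial markers summed to 27.0 to 34.3 CPM in Ctrl and to 47.2, 33.5 and 100.3 CPM in DTR. Of the 5 tested, 4 had log2 fold changes above 0 and 0 were called, with a median of 0.61. Without DTR replicate 3, 3 of the 5 were above 0 and the median was 0.42. At an unadjusted edgeR p under 0.05, 2 of the 5 were higher in DTR, against 3.81% of all genes tested. Tek, which encodes the angiopoietin receptor, read 11.2, 4.36 and 7.70 CPM in Ctrl and 14.7, 5.99 and 62.9 in DTR. Kdr, a receptor of VEGF, read 4.53, 2.85 and 1.65 CPM in Ctrl and 3.93, 1.58 and 11.997 in DTR, so that Tek and Kdr were both highest in DTR replicate 3. Vwf read 15.5, 15.4 and 12.1 CPM in Ctrl and 19.8, 19.9 and 21.3 in DTR, higher in every DTR library. Pecam1 was at 4.01 CPM in DTR replicate 3 and at 2.61 to 8.03 in the other libraries. Cdh5 was at 0 in DTR replicate 3 and at most at 1.37 CPM elsewhere, and Emcn, Erg and Cldn5 were at most at 0.290 CPM in the 6 libraries. The part of any of these in the members' values was not tested.

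**Figure D4:**
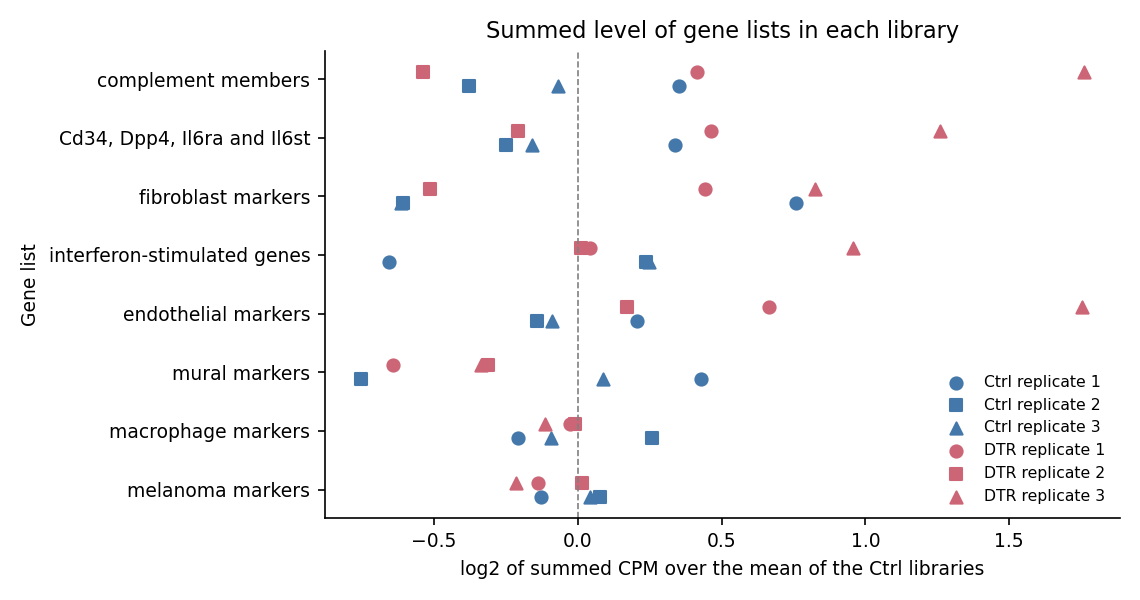
Summed CPM of each gene list in each library, as log2 over the mean of the 3 Ctrl libraries, for Ctrl (blue) and DTR (red) replicates. DTR replicate 3, the red triangle, is far to the right for the complement members (3807 CPM), for Cd34, Dpp4, Il6ra and Il6st, for endothelial markers, of which Tek gives most, and for interferon-stimulated genes, and to the left for melanoma markers.

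The rest of the cascade was mixed in direction. A list of 53 complement genes, the members included, had 49 genes with a count, of which 31 were tested, and 0 passed the adjusted threshold. At unadjusted p under 0.05, 2 of 31 were higher, against 3.81% of all genes tested, and 2 were lower, against 4.11%, with 15 log2 fold changes above 0 and 16 below (7507 and 7626 over all genes), and a median of -0.11, near 0. Over the same 31 genes its sign turned when Ctrl replicate 2 (0.0054), DTR replicate 1 (0.029) or DTR replicate 3 (0.020) was left out, and over the 32 genes tested without DTR replicate 3 it was -0.011. The groups did not overlap for 1 gene higher in DTR and 3 lower, 4 of 31, against 14.5% of all genes. The 25 tested genes that are no members had a median of -0.23, with 9 above 0 and 16 below. DTR replicate 3 was the highest library for 6 of these 25 (24%), and more than 2-fold above the next, after 0.5 CPM was added to each, for 0 of them. The addition matters for genes near 1 CPM. Without it, the paralog C4a was 2.30-fold above the next library in DTR replicate 3. Cd55b, below the edgeR filter, read 2.91 CPM in DTR replicate 3 and 0.785 in DTR replicate 1, the next library.

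The C1q chains, which carry the recognition head of the C1 complex and are typically made by macrophages, had log2 fold changes of -0.32 (C1qa), -0.34 (C1qb) and -0.37 (C1qc), and of -0.21, -0.36 and -0.31 without DTR replicate 3. Without Ctrl replicate 2 they stood at -0.0070, -0.045 and 0.0019. C1qa averaged 15.1 ± 5.23 CPM in Ctrl and 12.1 ± 3.94 in DTR (SD, n = 3), with overlapping groups. Of the lectin pathway, 4 of 9 genes were tested. Fcna, which encodes ficolin A, a pattern-recognition lectin of macrophages, had 17, 13 and 32 counts in Ctrl and 7, 3 and 3 in DTR (log2 fold change -2.40 ± 0.607 SE, edgeR adjusted p = 0.602, and -2.35 without DTR replicate 3). Its DTR libraries lay below every Ctrl library, at counts that few reads decide. Colec10, a collectin of the same role, was too low for the edgeR filter and had 0 counts in each Ctrl library and 19, 4 and 17 in DTR (DESeq2 adjusted p = 0.186). Masp2, a protease of the same list and also below the filter, had 0, 0 and 4 counts in Ctrl and 6, 6 and 4 in DTR (DESeq2 adjusted p = 0.970). Both were higher in every DTR library on the CPM scale and are named after their values were seen. C6 of the terminal pathway, also below the filter, went the other way. It had 3, 3 and 2 counts in Ctrl and 2, 1 and 0 in DTR, lower in every DTR library on the CPM scale (DESeq2 adjusted p = 0.985). Colec12, a scavenger receptor collectin, was the highest of the 4 tested genes of its role at 0.08. It stood at -0.19 without DTR replicate 3 and at -0.20 without Ctrl replicate 2.

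Among C3 and alternative pathway genes, properdin (Cfp), which stabilises the alternative pathway enzyme, averaged 4.01 ± 0.0917 CPM in Ctrl and 4.02 ± 1.48 in DTR. Of 7 terminal pathway genes, whose proteins form the pore, 2 were tested, C8g at -0.74 (-0.46 without DTR replicate 3) and Hc, the gene of C5, at -0.54 (between -1.39 and 0.18 with 1 library left out), both near 1 CPM. The lowest of the 5 soluble regulators tested was Cpn1 at -0.23 (-0.20 without DTR replicate 3) and the highest Serping1.

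Of the 5 membrane regulators tested, Cd59b was lowest, at -0.38 (-0.65 without DTR replicate 3), and Cd55 highest. Cd55b, below the edgeR filter, is not in this ranking. Cr1l, the mouse regulator known as Crry, averaged 14.3 ± 0.774 CPM in Ctrl and 18.0 ± 2.79 in DTR and was higher in every DTR library (log2 fold change 0.33 ± 0.151 SE, edgeR adjusted p = 0.630, and 0.22 without DTR replicate 3). It is named here because it was the one tested gene of the list higher in every DTR library, a choice made after its values were seen. The median of the 5 tested complement receptors was -0.24, and 0.020 without DTR replicate 3. Itgb2, the β chain of complement receptors 3 and 4, averaged 41.5 ± 5.26 CPM in Ctrl and 30.3 ± 4.11 in DTR (log2 fold change -0.45 ± 0.143 SE, edgeR adjusted p = 0.602, and -0.49 without DTR replicate 3) and was lower in every DTR library. C3ar1, the receptor of the C3a fragment, was also lower in every DTR library, at 6.80 ± 1.06 and 5.27 ± 0.597 CPM (-0.37 ± 0.217, edgeR adjusted p = 0.668, and -0.43 without that library). Itgax, which pairs with Itgb2 in receptor 4, had the highest value of the group, 0.12, and lay between -0.18 and 0.82 with 1 library left out.

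**Figure D5:**
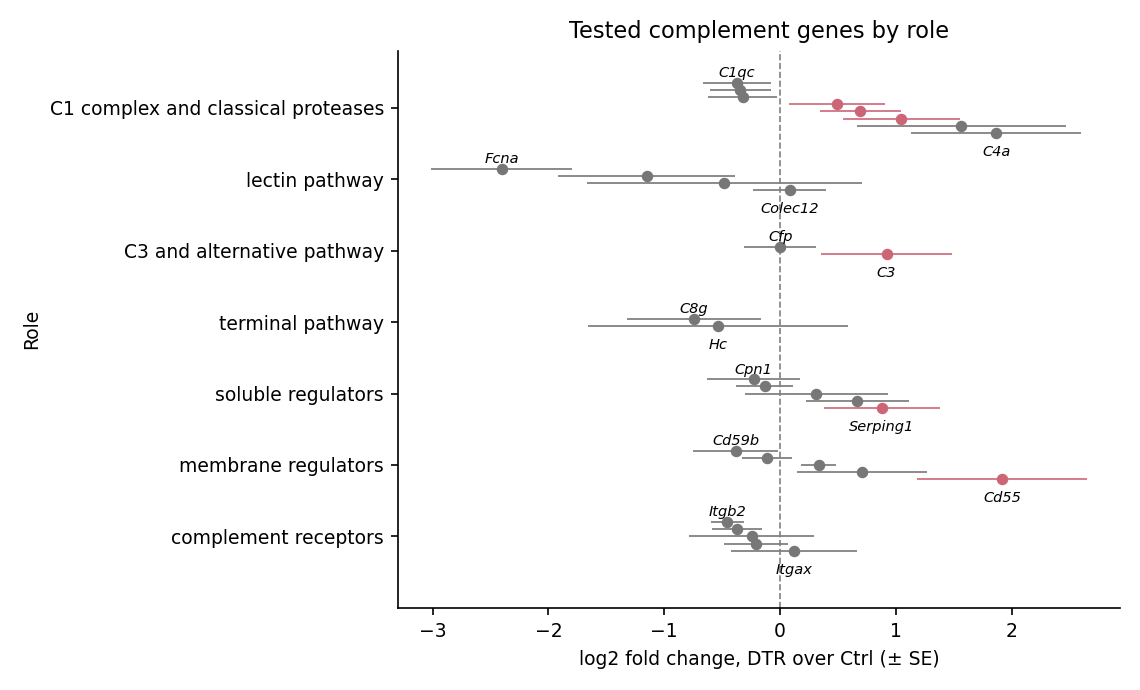
Log2 fold change of DTR over Ctrl with its SE for the 31 tested complement genes, by role, with the 6 tested members in red and the lowest and highest gene of each role named. Values run from -2.40 (Fcna) to 1.92 (Cd55), and none passed the adjusted threshold.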

How the data were processed

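RNA-seq libraries were made from total RNA of sorted cells with a stranded low-input kit (SMARTer Stranded Total RNA-Seq Pico v2) and sequenced on an Illumina NextSeq. The authors trimmed reads with cutadapt 3.4, mapped them to GRCm38 with STAR 2.7.3a and deposited raw counts per gene from featureCounts 2.0.1 for 6 libraries. The feature type and the treatment of reads that overlap several genes are not given in the sources used here, and the overlap pattern in the counts is described with C2 and Cfb. The 6 deposited columns of DESeq2-scaled values, recorded as a score, and the authors' own comparison columns of fold changes and p-values were not used. Of 27987 genes without a name in the table, 27841 were named from the annotation.

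Counts were tested with edgeR 4.0.16 (R 4.3.3): TMM factors, filterByExpr (minimum count 10, minimum total 15), glmQLFit and glmQLFTest, two-sided, with no covariates and Benjamini-Hochberg adjustment over 15133 genes, called at an adjusted p of 0.05. The script was tested on simulated data. CPM were scaled by TMM, and a prior of 0.5 was added before logs. Single values were compared with two-sided exact permutation tests (scipy 1.17.1), for which 3 against 3 libraries cannot go below 0.1. A total of 3 counts equals 0.0875 to 0.134 CPM, which covers counting error only. Lengths, coordinates and overlaps came from GENCODE M21 (GRCm38). The annotation release differs from the one used for counting, so gene ends may differ. Alternatives were DESeq2 1.42.0, other scalings and filters, a replicate block and each library left out in turn.

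The members and gene lists were chosen with earlier results of these data known. Genes named are the 8 members, the lowest and highest tested gene of each complement role, 4 paralogs, C1qa, C3ar1 and a further gene that is not reported here, and the 5 genes of mean CPM 10 or more most like the members' mean profile. Genes outside this rule that carry a value beside a result were chosen after their values were seen.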

Additional observations from a re-analysis of the deposited data

How the results depend on the processing

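No complement gene, member or other, passed the adjusted threshold in any of the 12 alternatives to the edgeR fit, although DESeq2 called 31 genes and the fit without Ctrl replicate 1 called 2 over the whole table. The median log2 fold change of the 6 tested members was above 0 in each of the 12, from 0.10 without DTR replicate 3 to 1.29 in the highest. The direction held in the same 12 for C3, C1ra, C1s1, Serping1 and Cd55, with Cd55 between 0.63 and 2.39. C4b ranged from -0.24 to 0.82 when 1 library was left out and was below 0 only without DTR replicate 3. The median over the 31 tested genes of the wider list was -0.11 and changed sign with 10 counts required in every library (0.0086), which kept 23 of the 31, and it ranged from -0.13 to 0.029 when 1 library was left out, above 0 without Ctrl replicate 2, DTR replicate 1 or DTR replicate 3. The counts of members whose groups did not overlap were 0 with a prior of 2 and with library size alone. Samples of the same replicate number did not deviate together (r of deviations 0.146, 0.163 and -0.065), so the number was not taken as a pairing, and with the replicate block the members' median was 0.65, that of the wider list -0.11, and 0 genes were called.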
